A study of Mus musculus with 34 samples.

Results

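The 10 libraries described here follow the same 5 C57BL/6J lines from epiblast stem cells (EpiSC) to definitive endoderm (DE). They were chosen by strain and line: the DE columns of lines 2, 44, 5-1, 4 and 1 of C57BL/6J, an inbred mouse strain, and the EpiSC columns of those lines, 10 of 34 libraries in all. The EpiSC group held 5 libraries of lines converted from C57BL/6J embryonic stem cells and kept on a feeder layer of irradiated mouse embryonic fibroblasts in medium with activin A at 20 ng/mL, FGF at 12.5 ng/mL and the tankyrase inhibitor NVP-TNKS656 (written NVP-TNKS6561 in the labels) at 175 nM. The DE group held 5 libraries made from the same lines over 40 h after plating on laminin, with 16 h in 3 uM CHIR, a GSK3 inhibitor, and activin A at 40 ng/mL, then 24 h in activin A at 100 ng/mL and 100 nM LDN-193189, which inhibits BMP receptors, after which CXCR4-positive cells were taken on a magnetic column. No transgene or mutation is given in the labels for any of these libraries, and each library is 1 line. The question is which genes differ between endoderm and its parent EpiSC in a single genetic background, and how far the 5 lines differ from each other. EpiSC RNA went into a stranded polyA library kit and DE RNA into an amplification kit for small inputs (12 cycles), so the kit and the cell type cannot be told apart in any value below. Samples of bulk RNA also cannot tell fewer cells of a type from less RNA per cell.

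Definitive endoderm is the germ layer that forms the gut tube, liver and pancreas. It leaves the primitive streak of the gastrulating embryo under high signalling by Nodal, a TGF-beta family ligand for which activin stands in during culture. Wnt signalling opens the streak programme with the T-box factor gene T, SMAD2 and SMAD3 with FOXH1 and EOMES then turn on endoderm factors such as SOX17, FOXA and GATA proteins, and POU5F1 and SOX2, which hold the pluripotent state, are shut off. Nodal induces its own extracellular inhibitors, the LEFTY proteins and CER1, which marks anterior endoderm.

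The promoters of the defining markers Cer1 and Pou5f1 are shown with those of 3 endoderm genes that rose and hold a searched motif. Each is the 250 bases before a RefSeq start (GRCm38.p6), 5′ to 3′ on the strand of the gene, with matched motifs in capitals. Sox17 is named only.

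Cer1, minus strand, chr4:82885152-82885401: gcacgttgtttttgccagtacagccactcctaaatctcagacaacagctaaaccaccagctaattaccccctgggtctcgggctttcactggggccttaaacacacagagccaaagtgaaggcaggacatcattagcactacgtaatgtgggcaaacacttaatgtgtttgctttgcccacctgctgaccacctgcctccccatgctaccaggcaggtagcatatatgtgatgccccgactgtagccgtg
Pou5f1, plus strand, chr17:35505782-35506031: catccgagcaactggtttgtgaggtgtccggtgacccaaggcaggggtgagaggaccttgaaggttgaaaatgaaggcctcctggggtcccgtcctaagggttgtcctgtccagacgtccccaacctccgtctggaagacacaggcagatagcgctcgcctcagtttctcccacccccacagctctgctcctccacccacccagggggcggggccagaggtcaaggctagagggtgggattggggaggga
Foxa1, minus strand, chr12:57546112-57546361: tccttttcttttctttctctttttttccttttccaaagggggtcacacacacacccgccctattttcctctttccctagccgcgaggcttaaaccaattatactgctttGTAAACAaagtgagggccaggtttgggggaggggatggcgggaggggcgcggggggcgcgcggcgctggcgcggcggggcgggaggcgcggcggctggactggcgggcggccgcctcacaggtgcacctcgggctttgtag
Prdm1, minus strand, chr10:44458749-44458998: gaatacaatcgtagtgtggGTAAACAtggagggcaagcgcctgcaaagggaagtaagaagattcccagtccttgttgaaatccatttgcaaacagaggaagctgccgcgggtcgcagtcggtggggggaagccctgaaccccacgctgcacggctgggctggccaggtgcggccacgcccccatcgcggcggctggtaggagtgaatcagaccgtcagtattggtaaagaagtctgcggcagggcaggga
Krt8, minus strand, chr15:102004343-102004592: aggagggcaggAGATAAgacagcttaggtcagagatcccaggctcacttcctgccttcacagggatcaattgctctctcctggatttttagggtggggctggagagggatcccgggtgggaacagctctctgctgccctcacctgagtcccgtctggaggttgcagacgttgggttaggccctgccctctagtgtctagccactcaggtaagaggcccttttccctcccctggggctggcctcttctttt

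The letters searched on both strands were ATGCAAAT for the octamer, AATCCACA for FOXH1, TGTTTAC for forkhead factors, AGATAA for GATA factors, CCATTGT for SOX factors, AGGTGTGA for T-box factors and CTTTGAT for LEF/TCF. The windows of Cer1 and Pou5f1 held none of these 7. Pou5f1 had 2 listed starts, and this covers only the window shown. The capitals mark a forkhead match in the windows of Foxa1 and Prdm1 and a GATA match in that of Krt8. Of 37 endoderm list members, 27 had an entry. The forkhead letters were in 3 of these 27 (Foxa1, Prdm1 and Apela) and in 3.17% of 32851 promoters, and the GATA letters in 3 of 27 (Krt8, Sfrp5 and Hnf4a) and in 9.99% of all. The LEF/TCF letters were in 1 of 27, that of Emb, and in 3.21% of all, and the other 4 motifs were in 0 of 27 against 0.718% to 3.02% of all promoters. A match describes letters only.

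The EpiSC libraries held 26.3 to 31.1 M counts each and the DE libraries 24.0 to 67.7 M, with lines 5-1 and 4 deepest. Levels are given as CPM (counts per M counts of a library, with library sizes scaled by the TMM method over the 10 libraries), and 1 count was worth 0.0318 to 0.0378 CPM in EpiSC and 0.0142 to 0.0459 CPM in DE. Gene positions are from GENCODE M21 on GRCm38 (mm10). Values in series are in the order of lines 2, 44, 5-1, 4 and 1. The Y-linked genes Ddx3y, Eif2s3y and Uty had at least 8.58 CPM in all 10 libraries. Kdm5d, also Y-linked, was at 0 CPM in DE of line 2 and 0.489 CPM in DE of line 44 (all values below). Xist, which is made from an inactive X chromosome, was at 14.8, 15.7, 34, 3.83 and 1.36 CPM in EpiSC and at no more than 0.688 CPM in DE. Markers of fibroblasts, the feeder cells, ran in the same order of lines by their mean log2 CPM in EpiSC, at 5.08, 5.21, 6.58, 4.01 and 1.89. The 14 tested of 15 summed to 87.5 to 3084 CPM in EpiSC and to 57.3 to 293 CPM in DE. The libraries of line 4 stood apart on another point. Among 22 genes that differed between lines (given below), 19 were over 4 times higher in line 2 than in lines 5-1 and 1 in both cell types, and in 9 of these line 4 lay between, at over 1.5 times those lines and below line 2. Not all of the 19 did so: in DE, Rps3a3 was at 304 CPM in line 2, 188 in line 44 and 1.03 in line 4. RP23-338O4.6 and RP24-364O14.1, also among the 22, were highest in line 4 in both cell types, at 92.2 and 168 CPM in DE. Whether the libraries of line 4 hold RNA of another line was not tested, so their values may not be those of line 4 alone. Some results are therefore also given without it, among them the count of changed genes and the marker folds.

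Most tested genes differed between DE and EpiSC. Of 17794 genes tested, 10939 (61.5%) passed edgeR's quasi-likelihood test paired by line at a Benjamini-Hochberg adjusted p of 0.05, 5155 higher in DE (29.0%) and 5784 lower (32.5%). A share of a list near 29.0% rising or 32.5% falling is that of genes at large. The median log2 fold over all genes was -0.12. In 4385 genes (24.6%) all 5 DE libraries lay above all 5 EpiSC libraries, and in 4777 (26.8%) all lay below. Without line 4, 9511 genes passed. The paired fit leaves 4 residual degrees of freedom.

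Sox17 and Cer1 rose and Pou5f1 fell in all 5 lines. Sox17, the SOX factor that defines definitive endoderm (chromosome 1, 4490931 to 4497354), was at 1.51, 10.5, 0.697, 10.1 and 9.98 CPM in EpiSC and at 1407, 1360, 1198, 1097 and 864 CPM in DE. Means were 6.57 ± 5.00 CPM (SD, n = 5) and 1185 ± 219 CPM (SD, n = 5), and the log2 fold was 7.92 ± 0.77 (SE; adjusted p = 5.67e-05, edgeR). EpiSC of lines 2 and 5-1 were the lowest, while the DE libraries lay within a narrow range far above every EpiSC library. Cer1, an antagonist of Nodal and BMP (chromosome 4, 82881751 to 82885148), was at 15.1, 94.1, 3.74, 151 and 178 CPM in EpiSC and at 6072, 9946, 3394, 6814 and 5415 CPM in DE (log2 fold 7.04 ± 0.83, adjusted p = 0.000158, edgeR). Again EpiSC of lines 2 and 5-1 held the lowest values. Pou5f1, which encodes OCT4 (chromosome 17, 35506018 to 35510772), was at 658, 478, 646, 515 and 475 CPM in EpiSC and at 12.7, 0.827, 1.10, 1.77 and 1.11 CPM in DE (log2 fold -8.19 ± 0.61, adjusted p = 1.46e-05, edgeR). The DE library of line 2 kept the most Pou5f1, and no DE library overlapped an EpiSC library. Without line 4 the log2 folds of Sox17, Cer1 and Pou5f1 were 8.39, 7.60 and -8.13, and without line 2 they were 7.47, 6.58 and -8.72. The labels of all 10 libraries fit these defining markers of their cell type.

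**Figure D1:**
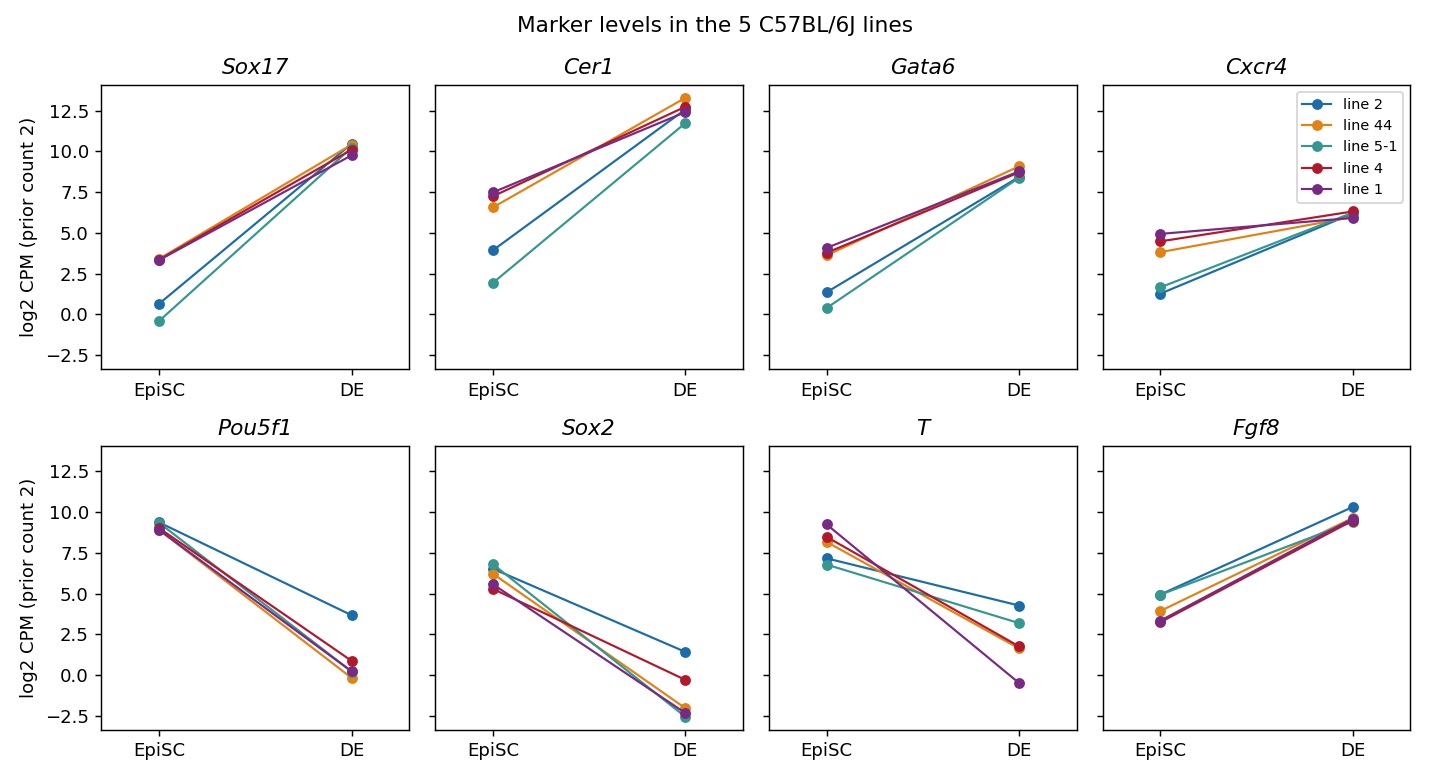
Levels of 8 marker genes as log2 CPM (prior count of 2, vertical axis) in the EpiSC and DE libraries of each C57BL/6J line (points joined by line). For Sox17, Cer1, Gata6 and Cxcr4 lines 2 and 5-1 start lowest and the lines meet in DE, whereas for Pou5f1, Sox2 and T the lines lie further apart in DE than in EpiSC.

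The endoderm transcription factors rose as a group. Of 16 tested members of 17, 14 rose and 0 fell, against 29.0% and 32.5% of all genes, with a median log2 fold of 4.03 beside -0.12. The forkhead pioneer gene Foxa1 went from 2.46, 11.9, 2.50, 17.1 and 26.9 CPM in EpiSC to 85.1, 184, 213, 194 and 227 CPM in DE, a log2 fold of 4.33 ± 0.48. Its relative Foxa2, an early organizer of the endoderm and node, was already at 40.0, 41.7, 17.4, 42.8 and 52.6 CPM in EpiSC and reached 122, 80.6, 104, 93.6 and 71.1 CPM, a log2 fold of 1.33 ± 0.28. Foxa2 was thus the least changed of the called factors here, and the groups did not overlap. Foxa3 rose by 3.55 ± 0.52 on the log2 scale, at no more than 5.92 CPM.

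Gata6, a zinc finger factor that acts before and with SOX17, rose from 2.49, 12.2, 1.25, 13.6 and 16.7 CPM to 344, 540, 332, 418 and 435 CPM (log2 fold 5.93 ± 0.54). Gata4 rose by 3.73 ± 0.21 but kept a fixed order of the lines, described below. The homeobox gene Hhex, of anterior endoderm and liver, reached 673, 715, 456, 562 and 583 CPM from 4.87 to 29.6 CPM (log2 fold 5.74 ± 0.44). Lhx1 and Gsc, which mark the anterior streak and its axial derivatives, rose by 4.67 ± 0.66 and 6.35 ± 0.66, and Prdm1, a transcriptional repressor, by 4.41 ± 0.26. Gsc was at 3.59, 12.2, 0.881, 12.6 and 10.6 CPM in EpiSC and 830, 606, 433, 417 and 367 CPM in DE.

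Eomes and Mixl1, which act in the streak upstream of endoderm genes, rose as well. Eomes was at 94.6, 54.2, 122, 33.0 and 60.1 CPM in EpiSC and at 129, 206, 179, 197 and 213 CPM in DE (1.47 ± 0.32). In contrast to Sox17 it was highest in EpiSC of lines 2 and 5-1. Mixl1 rose by 3.70 ± 0.42 and was highest in DE of line 5-1 at 221 CPM. Otx2, a factor shared by epiblast and anterior endoderm, rose by 1.99 ± 0.13 with nearly the same response in each line (SD of 0.15 over the lines). Hnf4a (1.60 ± 0.95) and Sox7 (0.48 ± 1.33), of later and extraembryonic endoderm, did not pass and stayed at no more than 1.65 CPM in all libraries, and Gata5 was too low to test.

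Surface and secreted products of endoderm rose too, 15 of 19 tested, and Apela fell. The median log2 fold was 3.50. Cxcr4, the chemokine receptor used for the sort, was at 2.34, 14, 3.08, 22.1 and 30.5 CPM in EpiSC and at 72.7, 62.6, 75.1, 79.2 and 60.1 CPM in DE (log2 fold 2.82 ± 0.61). EpiSC of lines 2 and 5-1 were lowest, and the groups did not overlap. The call was lost with no low-count filter (adjusted p = 0.0554, edgeR). The sort took cells by its protein, so this rise is no independent evidence of endoderm. The scavenger receptor gene Ackr3 rose by 4.90 ± 0.43 to 87.9 to 119 CPM, and Cxcl12, the ligand of both receptors, fell by 2.99 on the log2 scale with overlapping groups. Krt8 and Krt18, the keratin pair of simple epithelia, rose by 4.64 ± 0.74 and 3.91 ± 0.50. Krt8 was at 27.5, 75.1, 12.9, 284 and 163 CPM in EpiSC and at 2105, 1575, 1853, 1671 and 1383 CPM in DE. Krt19 (2.61 ± 0.90) overlapped between the groups, with EpiSC of line 4 at 84.8 CPM against 2.46 to 13.6 CPM in the other EpiSC libraries, and its call ended without line 2, 44 or 5-1 (adjusted p = 0.0741, 0.0581 and 0.0871, edgeR), with no low-count filter (0.199) and without pairing (0.135).

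Other members showed the range of levels in this list. Trh, the precursor of thyrotropin-releasing hormone, was already at 394, 1163, 499, 325 and 86.5 CPM in EpiSC and rose to 3215, 5781, 1055, 753 and 1052 CPM (2.25 ± 0.38), with overlap, and line 44 was highest in both. Kit, a receptor tyrosine kinase, rose by 4.10 ± 0.20, Shisa2, which holds back maturation of Wnt and FGF receptors, by 5.57 ± 0.43, and Emb, an immunoglobulin family glycoprotein, by 3.50 ± 0.29 to between 4783 and 7026 CPM. Apela, a peptide ligand of the apelin receptor, was at 30.6, 47.9, 51.7, 78.8 and 101 CPM in EpiSC and at 7.80, 4.59, 7.76, 3.44 and 2.68 CPM in DE (-3.55 ± 0.47). Epcam (0.25 ± 0.16) and Cdh1 (0.34 ± 0.18), general epithelial adhesion genes, and the carboxypeptidase M gene Cpm (0.86 ± 0.37) did not pass. Cdh1 passed without line 2 (0.58, adjusted p = 0.00304, edgeR). Cpm passed without line 4 (1.19, adjusted p = 0.0301, edgeR) and with DESeq2 (adjusted p = 0.0281).

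Nodal pathway genes moved both ways within each role. Among ligands and cofactors 3 rose and 3 fell of 8 tested, beside 29.0% and 32.5% of all genes. Nodal itself was at 76.0, 55.5, 102, 47.7 and 58.3 CPM in EpiSC and at 252, 250, 202, 201 and 223 CPM in DE (1.78 ± 0.19). Its co-receptors moved in opposite directions. Tdgf1 (Cripto), the epiblast form, went from 709, 499, 970, 802 and 1074 CPM to 160, 160, 160, 172 and 110 CPM (-2.38 ± 0.23), and Cfc1 (Cryptic) from 0.793, 6.96, 0.220, 7.69 and 13.3 CPM to 239, 150, 115, 123 and 140 CPM (5.32 ± 0.85). Neither overlapped between the groups, and Cfc1 in EpiSC was lowest in lines 2 and 5-1. The activin subunit gene Inhba (-4.32 ± 0.38) and the convertase gene Pcsk6 (-1.87 ± 0.29) fell, and the subunit gene Inhbb rose (1.74 ± 0.52). Inhba in EpiSC was highest in line 5-1 at 62.8 CPM and lowest in line 1 at 2.04 CPM, and its order of lines was that of the fibroblast list's mean log2 CPM. The part of feeder RNA was not tested. The convertase gene Furin (-0.13 ± 0.17) and the ligand gene Gdf3 (-2.69 ± 1.08) did not pass, and Gdf1 was too low to test. Gdf3 passed without line 4 (-3.31, adjusted p = 0.0473, edgeR) and with DESeq2 (adjusted p = 0.0142).

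The antagonists moved in both directions. Of 9 tested, 4 rose and 4 fell, beside 29.0% and 32.5% of all genes. Lefty1, a secreted inhibitor of Nodal (chromosome 1, 180935022 to 180938400), was at 64.3, 94.2, 85.4, 77.9 and 108 CPM in EpiSC and at 10538, 8002, 5452, 5876 and 6738 CPM in DE (6.39 ± 0.26). Lefty2, its neighbour (chromosome 1, 180893108 to 180899103), rose from 12.7, 19.1, 9.69, 27.9 and 33.2 CPM to 1847, 1983, 297, 1434 and 1462 CPM (5.99 ± 0.38), with the DE library of line 5-1 far below the other 4. The sequences of Lefty1 and Lefty2 are similar, and how reads shared between them were counted is not given in the sources used here, so their split is uncertain. Pmepa1, a membrane protein that binds SMADs, rose by 1.82 ± 0.36. Smad7 (-2.75 ± 0.19), the inhibitory SMAD, Ski (-1.99 ± 0.14) and Skil (-1.25 ± 0.21), nuclear co-repressors of SMADs, and the activin-binding protein gene Fst (-1.98 ± 0.28) fell. Smad7 went from 104, 114, 118, 77.8 and 94.5 CPM to 14.1, 14.8, 12.2, 14.6 and 19.7 CPM without overlap. The co-repressor gene Tgif1 (-0.21 ± 0.14) did not pass.

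Receptors and transducers changed by smaller amounts. The type II receptor gene Acvr2b (1.35 ± 0.14), the partner factor gene Foxh1 (1.06 ± 0.16), Smad2 (0.67 ± 0.12) and the shared Smad4 (0.60 ± 0.15) rose. The type I receptor gene Acvr1b fell from 55.3, 58.5, 51.4, 60.9 and 71.1 CPM to 15.2, 12.7, 12.1, 19.9 and 11.1 CPM (-2.09 ± 0.19). Smad3 had a log2 fold of -0.44 ± 0.17 (adjusted p = 0.0467, edgeR), a call lost in 10 of 13 alternative fits. Smad2 was among the most uniform list members, with an SD of the log2 response of 0.10 over the lines. Acvr2a (0.20 ± 0.20) did not pass, and Acvr1c was too low to test.

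**Figure D2:**
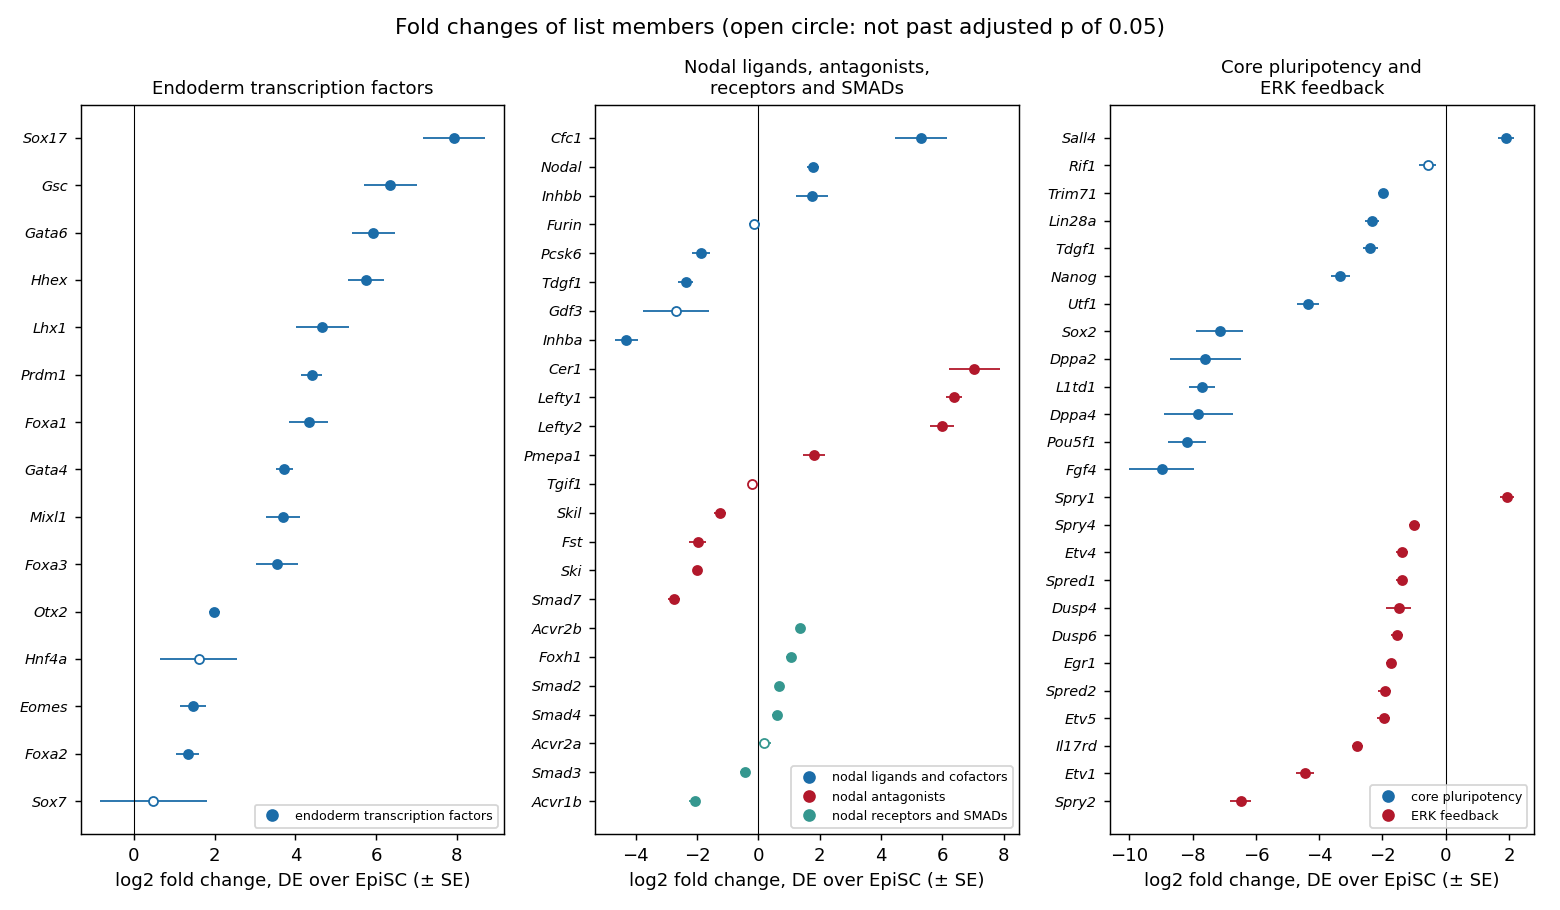
Log2 fold changes of DE over EpiSC (points, horizontal axis) with their standard errors (bars) for the tested members of 6 lists that are reported here, from the edgeR fit paired by line; open circles did not pass. All called endoderm factors lie right of 0, Nodal antagonists lie on both sides, and Sall4 and Spry1 are the called members right of 0 in the third panel.

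Streak genes moved in both directions. The founding T-box gene T (Brachyury; chromosome 17, 8434423 to 8442496) was at 143, 287, 110, 356 and 605 CPM in EpiSC and at 19.1, 3.05, 9.04, 3.31 and 0.656 CPM in DE (-5.76 ± 1.02). The order of the lines was largely inverted: lines 2 and 5-1 were lowest in EpiSC and highest in DE, and line 1 was highest and then lowest. Fgf8, a ligand of the streak and anterior endoderm, rose from 30.6, 15.2, 30.4, 9.39 and 10.0 CPM to 1271, 796, 681, 714 and 775 CPM (5.62 ± 0.31). Of 11 tested streak genes 6 rose (Gsc, Fgf8, Lhx1, Mixl1, Sp5 and Eomes) and 3 fell (T, Tbx6 and Wnt3). The shares of all genes were 29.0% and 32.5%. The falls of Tbx6, a paraxial mesoderm factor (-1.54 ± 0.48, at no more than 1.40 CPM), and of the ligand gene Wnt3 (-0.65 ± 0.19) were lost in 4 and 2, respectively, of the 5 fits with 1 line left out (adjusted p from 0.0561 to 0.0905, edgeR). Evx1 and Cdx2 did not pass and were at no more than 4.25 CPM, and Mesp1, Mesp2, Msgn1 and Cdx1 were too low to test.

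Core pluripotency genes fell, 11 of 13 tested, with a median log2 fold of -4.36. Sox2, the partner of POU5F1, went from 91.7, 74.2, 111, 39.0 and 47.4 CPM to 2.62, 0.188, 0.113, 0.758 and 0.143 CPM (-7.14 ± 0.74). Nanog went from 136, 93.0, 172, 43.7 and 76.9 CPM to 12.2, 3.69, 21.3, 8.38 and 8.18 CPM (-3.33 ± 0.31) and fell by less than Pou5f1 or Sox2 in each line. L1td1, an RNA-binding protein gene of pluripotent cells (chromosome 4, 98726734 to 98738480), fell from 704 to 1019 CPM to 1.69 to 11.3 CPM (-7.70 ± 0.41). Utf1, a chromatin factor gene, had a log2 fold of -4.36 ± 0.35. Lin28a (-2.33 ± 0.22) and Trim71 (-1.98 ± 0.17), RNA-binding genes of early embryos, fell less. Fgf4 was at 11.3 to 29.9 CPM in EpiSC and had 8 counts in DE of line 2 and 0 in the other 4 DE libraries. Dppa2 and Dppa4, at no more than 1.51 CPM in EpiSC, had 0 counts in all DE libraries. Sall4, a zinc finger factor, went against the list: 297, 213, 297, 196 and 245 CPM in EpiSC and 531, 766, 1088, 1196 and 1299 CPM in DE (1.92 ± 0.25). The telomere factor gene Rif1 (-0.56 ± 0.27) did not pass, but it did without line 4 (-0.74, adjusted p = 0.037, edgeR).

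Primed epiblast genes did not move as one, with 5 rising and 7 falling of 13, beside 29.0% and 32.5% of all genes. Fgf5, a marker of the epiblast after implantation, rose from 263, 288, 205, 169 and 266 CPM to 1676, 1898, 1488, 1676 and 1552 CPM (2.82 ± 0.16). Sox4 (2.74 ± 0.18), Cldn6 (2.08 ± 0.20) and Otx2 were among the others that rose. The POU factor gene Pou3f1 (-4.01 ± 0.27) and the zinc finger gene Zic2 (-4.01 ± 0.21) fell, and Foxd3 was at 14.1 to 49.7 CPM in EpiSC with 8 counts in all 5 DE libraries together. Dnmt3b, the de novo methyltransferase gene of the epiblast, stayed between 986 and 1951 CPM and did not pass (-0.25 ± 0.20). Of 7 tested naive pluripotency genes, 1 rose (Nr0b1, to at most 1.2 CPM) and 1 fell (Klf4, -0.91 ± 0.34). The rise was lost without line 44, 5-1 or 4, and the count that fell was 0 without line 2, 44, 5-1 or 1. Beside these, Dnmt3a (-2.92 ± 0.22), Tet1 (-2.85 ± 0.29) and the maintenance gene Dnmt1 (-1.10 ± 0.20) fell among 8 DNA methylation genes. In that list 2 rose (1 without line 44 or 1) and 5 fell, beside the same shares of all genes. Tet2 rose by 1.15 ± 0.26 with overlap.

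Wnt feedback genes moved in both directions. Axin2, the most direct readout of beta-catenin activity, was at 28.9, 16.1, 27.5, 10.9 and 13.3 CPM in EpiSC and at 1.10, 0.0752, 3.00, 1.47 and 0.257 CPM in DE (-4.47 ± 0.63). Lef1 (-3.03 ± 0.21) and the Wnt receptor ligase gene Znrf3 (-2.22 ± 0.22) fell with it, and Tcf7 (-0.54 ± 0.18) fell in a call lost without line 44, 5-1 or 4. The secreted inhibitor genes Dkk1, Sfrp5, Frzb and Sfrp1 rose: Dkk1 by 5.61 ± 0.92, Sfrp5 by 6.08 ± 0.51, Frzb by 5.08 ± 0.35 and Sfrp1 by 4.49 ± 0.27. Sfrp1 reached 960, 2161, 1262, 1569 and 1994 CPM in DE. Of the TCF factors, Tcf7l2 rose by 3.99 ± 0.15, from 20.2 to 37.4 CPM to 267 to 540 CPM, and Tcf7l1 by 0.97 ± 0.21. In all 7 of 16 rose and 4 fell, beside 29.0% and 32.5% of all genes. Nkd1, Nkd2, Notum, Rnf43 and Lgr5 did not pass the test. Sp5, a direct target of beta-catenin, rose by 3.20 ± 0.74 and was highest in DE of line 5-1 at 62.6 CPM, a call lost with no low-count filter (adjusted p = 0.0598, edgeR).

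Among Wnt ligands and receptors 4 of 14 rose and 6 fell, close to the 29.0% and 32.5% of all genes. Wnt8a fell from 30.3, 5.63, 68.6, 0.830 and 9.30 CPM to at most 0.275 CPM. The co-receptor genes Lrp5 (-4.47 ± 0.46) and Lrp6 (-1.81 ± 0.17) fell, with Lrp5 going from 152, 157, 133, 177 and 121 CPM to 1.38, 5.42, 11.7, 14.4 and 6.73 CPM. The Frizzled receptor genes Fzd8 (5.27 ± 0.23) and Fzd5 (1.65 ± 0.38) rose. Fzd8 reached 418, 751, 521, 781 and 864 CPM from 8.99 to 33.1 CPM, without overlap.

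Feedback genes of FGF and ERK signalling fell, 11 of 12, with a median log2 fold of -1.64. Spry2, a receptor tyrosine kinase inhibitor (chromosome 14, 105891947 to 105896819), went from 225, 230, 256, 171 and 199 CPM to 5.55, 2.11, 1.64, 2.48 and 1.57 CPM (-6.49 ± 0.33). The ETS factor gene Etv1 (-4.45 ± 0.30), the receptor antagonist gene Il17rd (-2.79 ± 0.18) and the ERK phosphatase gene Dusp6 (-1.53 ± 0.20) also fell. Spry1 was the exception and rose from 23.3, 33.3, 13.3, 35.8 and 23.7 CPM to 88.0, 122, 91.7, 78.2 and 93.4 CPM (1.93 ± 0.23). FGF is listed for the EpiSC medium and for plating and not for the 2 DE stages, so medium and cell type cannot be told apart here. The receptors moved in opposite directions: Fgfr1 went from 211, 210, 320, 195 and 167 CPM to 18.2, 7.03, 49.7, 19.2 and 13 CPM (-3.61 ± 0.30), and Fgfr2 from 3.74, 3.31, 6.13, 4.30 and 4.80 CPM to 23.8, 58.7, 36.0, 50.2 and 51.6 CPM (3.27 ± 0.27). Of 11 FGF ligands and receptors, 4 rose and 5 fell, beside 29.0% and 32.5% of all genes. Fgf10 was among those that rose (4.75 ± 0.41).

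BMP genes were mixed. Of 14 tested, 6 rose and 2 fell, beside 29.0% and 32.5% of all genes, and the median log2 fold was 0.08. The BMP receptors were inhibited in the second stage, and the effect of this was not tested. The ligand genes Bmp2 (4.57 ± 0.56) and Bmp7 (3.37 ± 0.47), the decoy receptor gene Bambi (4.37 ± 0.19) and the inhibitory Smad6 (3.16 ± 0.18) rose. Bmp2 reached 368, 547, 455, 442 and 383 CPM from 8.23, 21.7, 4.55, 47.3 and 45.4 CPM. The ID genes, standard targets of BMP, differed among themselves. Id3 rose from 15.5 to 22.9 CPM to 426, 256, 160, 154 and 249 CPM (3.56 ± 0.29), Id2 fell by 2.55 on the log2 scale, and Id1, at 2.12 to 10.8 CPM, did not pass (-0.06 ± 0.51).

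Genes of epithelia and of mesenchyme were read beside the fibroblast markers, since EpiSC grew on fibroblasts. Of 14 epithelial genes 6 rose, among them Krt7 (4.47 ± 0.53) and the splicing regulator gene Esrp2 (2.81 ± 0.27), and the tight junction genes Tjp1 (-2.19 ± 0.20) and Cldn4 (-3.29 ± 0.78) fell, beside 29.0% and 32.5% of all genes. In 4 of the 14 all DE libraries lay above all EpiSC libraries, beside 24.6% of all genes. Of 10 mesenchymal genes 7 fell and Tgfb2 rose (1.47 ± 0.44, lost without line 44 at an adjusted p of 0.0513, edgeR). Zeb1 (-4.15 ± 0.35) and Zeb2 (-4.95 ± 0.39), repressors of epithelial genes, and Snai2 (-3.13 ± 0.46) were among those that fell. The fibronectin gene Fn1 went from 1299, 1381, 2888, 1401 and 592 CPM to 137, 124, 160, 166 and 136 CPM (-3.22 ± 0.28). Of 14 fibroblast markers 12 fell and 0 rose, with a median log2 fold of -3.85. The surface marker Thy1 was at 37.7, 48.2, 122, 24.6 and 8.65 CPM in EpiSC and at no more than 0.321 CPM in DE. Collagen Col1a1 was at 300, 293, 753, 103 and 8.77 CPM in EpiSC and at 37.5, 6.02, 16.9, 11.6 and 2.85 CPM in DE. In EpiSC, Fn1, Zeb2 and Snai2 were highest in line 5-1, where the fibroblast list was highest too. Acta2 (-0.19 ± 0.51) and Pdgfrb (-0.77 ± 0.56) did not pass. The part of feeder RNA in these falls was not tested.

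Interferon response genes fell, 11 of 12, and followed the fibroblast order in part. Their mean log2 CPM was 4.17, 3.64, 4.31, 2.89 and 2.16 in EpiSC and 1.76, 0.07, 0.08, -0.09 and -0.21 in DE, where line 2 alone stood above 1. The ubiquitin-like Isg15 went from 37.1, 15.3, 29.2, 5.99 and 4.2 CPM to 1.19 CPM in line 2 and at most 0.200 CPM in the other 4 DE libraries. The fibroblast list was highest in DE of line 2 as well, with a mean log2 CPM of 2.75 against -0.61 to 1.27 in the other DE libraries. Irf1 ran the other way in EpiSC, from 43.3 CPM in line 2 to 127 CPM in line 1, and fell by 1.48 on the log2 scale. Stat2 (-0.29 ± 0.23) did not pass. The part of feeder RNA in this list was not tested.

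**Figure D3:**
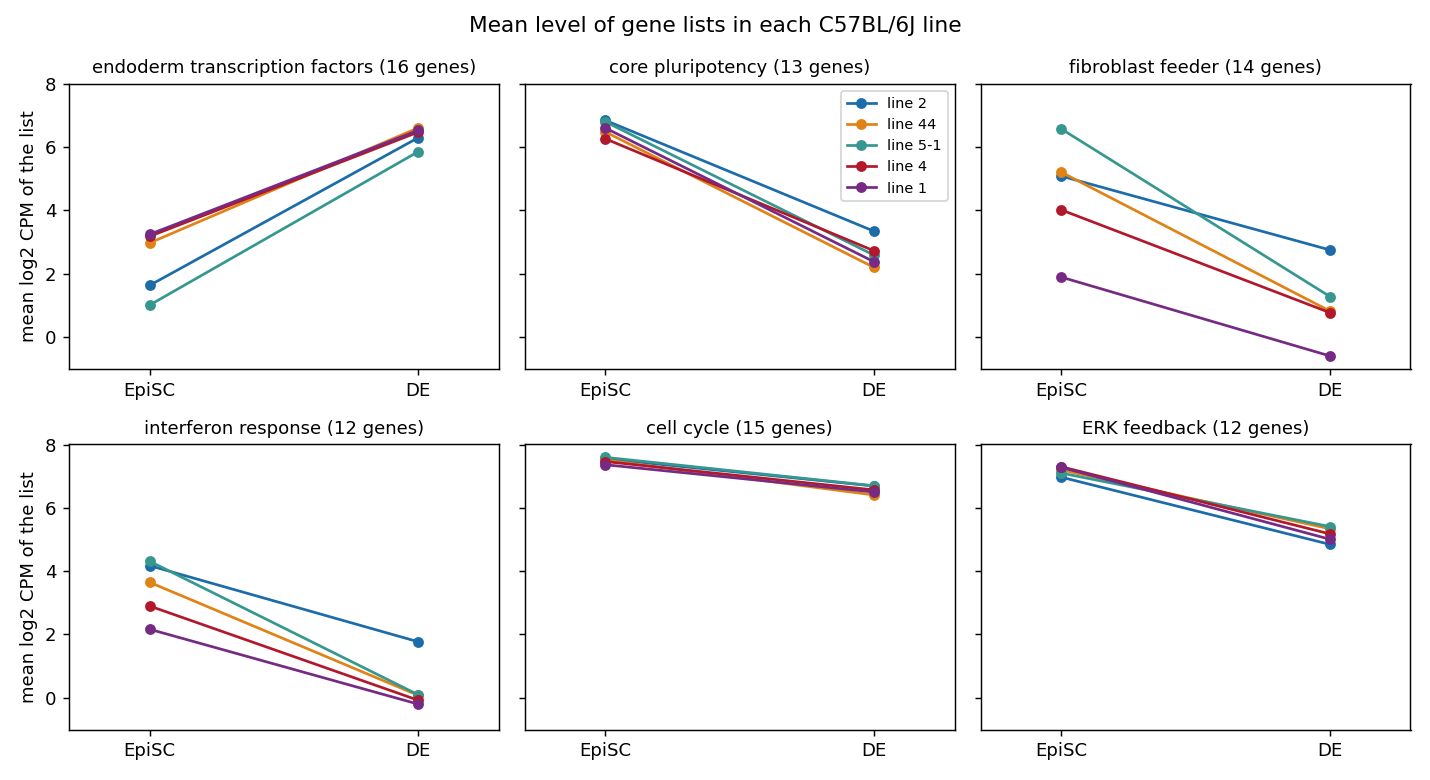
Mean log2 CPM (vertical axis) over the tested members of 6 gene lists in the EpiSC and DE libraries of each C57BL/6J line (points joined by line). The fibroblast list spans 1.89 to 6.58 in EpiSC, the endoderm factors 1.00 to 3.24, and in DE the interferon list is above 1 in line 2 only.

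Markers of other lineages moved in both directions. Visceral endoderm expresses many of the same factors, but Afp and Ttr, its most abundant products, were too low to test. Of 12 extraembryonic endoderm genes 3 rose, namely the retinol carrier Rbp4 (5.27 ± 0.44, to 12.6 to 71.9 CPM), the endocytic receptor subunit Amn (5.32 ± 0.57, to at most 8.17 CPM) and Apoa1 (to at most 14.1 CPM), and Thbd fell with overlap (3 fell without line 1). Among all genes 29.0% rose and 32.5% fell. The extraembryonic list summed to 624 to 2396 CPM in EpiSC and to 1101 to 1400 CPM in DE. Most of this came from basement membrane genes that fibroblasts also express. Sparc was at 652, 514, 373, 329 and 372 CPM in DE, Lamb1 at 330, 498, 324, 477 and 641 CPM and Col4a1 at 128, 221, 289, 224 and 247 CPM. None of these passed (log2 folds 0.05 ± 0.32, 0.28 ± 0.20 and -0.04 ± 0.36). Of 10 mesoderm genes 3 rose and 5 fell (3 fell without line 2, 5-1 or 4), beside 29.0% and 32.5% of all genes. The receptor gene Pdgfra (2.80 ± 0.42) and Isl1 (4.11 ± 0.47) rose, and Kdr was at 1.77 to 4.38 CPM in EpiSC and had counts in a single DE library, that of line 4 (0.174 CPM). Of 8 endothelial genes, the VEGF receptor gene Flt1 rose from 80.1, 178, 73.2, 178 and 231 CPM to 771, 1253, 776, 1016 and 961 CPM (2.81 ± 0.22), Sox18 rose to at most 10.2 CPM, and Pecam1 and Cdh5 stayed at no more than 1.02 CPM. In the neural list 4 of 7 fell, among them the filament gene Nes (chromosome 3, 87971078 to 87980451), from 334, 484, 371, 774 and 611 CPM to 6.06, 3.72, 12.9, 18 and 8.15 CPM (-5.84 ± 0.34), and the tubulin gene Tubb3 (-3.98 ± 0.48). Lhx5 rose to at most 1.58 CPM. The 5 tested of 10 posterior HOX, CDX and EVX genes did not exceed 6.97 CPM in any library.

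Metabolic and cell cycle genes moved in part of each list. Of 14 glycolytic genes 8 rose, including the glucose transporter genes Slc2a1 (1.49 ± 0.13) and Slc2a3 (2.25 ± 0.20) and Ldha (1.70 ± 0.14), and 4 fell (2 without line 5-1), beside 29.0% and 32.5% of all genes. Those that fell included the hexokinase gene Hk2 (-2.36 ± 0.24) and Pfkp (-2.96 ± 0.27). Slc2a3 was at 428, 870, 367, 739 and 566 CPM in EpiSC and at 2308, 4412, 939, 4081 and 3538 CPM in DE, with line 5-1 lowest in both. Of 12 cholesterol genes 5 rose, led by Cyp51 (1.69 ± 0.14), and 1 fell, beside 29.0% and 32.5% of all genes. The count that rose was 9 without line 2. Of 15 cell cycle genes 8 fell and 0 rose, beside 32.5% and 29.0% of all genes. Among those that fell were the cyclin gene Ccnd1 (-2.55 ± 0.25), the topoisomerase gene Top2a (-1.66 ± 0.15) and the inhibitor gene Cdkn1b (-2.0 ± 0.19). Of 10 immediate early and heat shock genes, which respond to dissociation and sorting, 3 rose and 3 fell, as among all genes (29.0% and 32.5%).

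The largest folds outside these lists added genes of other functions. Both sets of 10 below were taken from called genes without overlap whose mean log2 CPM was 4 or more, which leaves out larger falls of genes with lower means such as Sox2. The rises included the forkhead gene Foxq1 (7.64 ± 0.59), the pepsinogen gene Pga5 (7.50 ± 1.03), the collagen gene Col23a1 (6.52 ± 0.28) and Fam213a (5.80 ± 0.28). The other 6 were Sox17, Cer1, Lefty1, Gsc, Lefty2 and Gata6. Pga5, a stomach protease precursor, went from 3.14, 23.2, 0.330, 33.2 and 38.2 CPM to 3819, 2398, 957, 1700 and 1697 CPM. Foxq1 was at 0.184 to 5.06 CPM in EpiSC and at 562, 502, 263, 281 and 444 CPM in DE. The 10 largest falls at that level were Pou5f1, L1td1, Enpp3 (-6.91 ± 0.43), Spry2, the scaffold gene Akap12 (-6.02 ± 0.38), the semaphorin gene Sema6a (-6.00 ± 0.30), the endocytic receptor gene Lrp2 (-5.94 ± 0.24), Nes, T and the zinc finger gene Zfp462 (-5.75 ± 0.23). Sema6a fell from 243 to 334 CPM to 2.56 to 6.79 CPM.

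Endoderm genes varied between lines in EpiSC, where their levels were low. Over 9412 genes whose mean log2 CPM was at least 3, the SD of log2 CPM between the 5 lines was larger in EpiSC than in DE in 2004 (21.3%), with medians of 0.18 in EpiSC and 0.35 in DE. Sox17 had an SD of 1.81 in EpiSC and 0.28 in DE, Lhx1 of 1.92 and 0.17, Cxcr4 of 1.67 and 0.17, and Krt8 of 1.82 and 0.23. Pou5f1 had 0.23 in EpiSC and 1.56 in DE. For each of these 5 genes the larger SD was in the cell type with the lower level, and many list members reached the level set only through the other cell type, so no count over the lists is drawn from these spreads. The mean log2 CPM of the endoderm factors was 1.63, 2.97, 1.00, 3.18 and 3.24 in EpiSC and 6.30, 6.61, 5.86, 6.48 and 6.53 in DE, so lines 2 and 5-1 started lowest. Median responses of this list were 4.46, 3.76, 5.52, 3.57 and 3.08. No test was made of these spreads, and the level in EpiSC enters both the spread and the response. The sort for CXCR4 applied to DE alone.

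**Figure D4:**
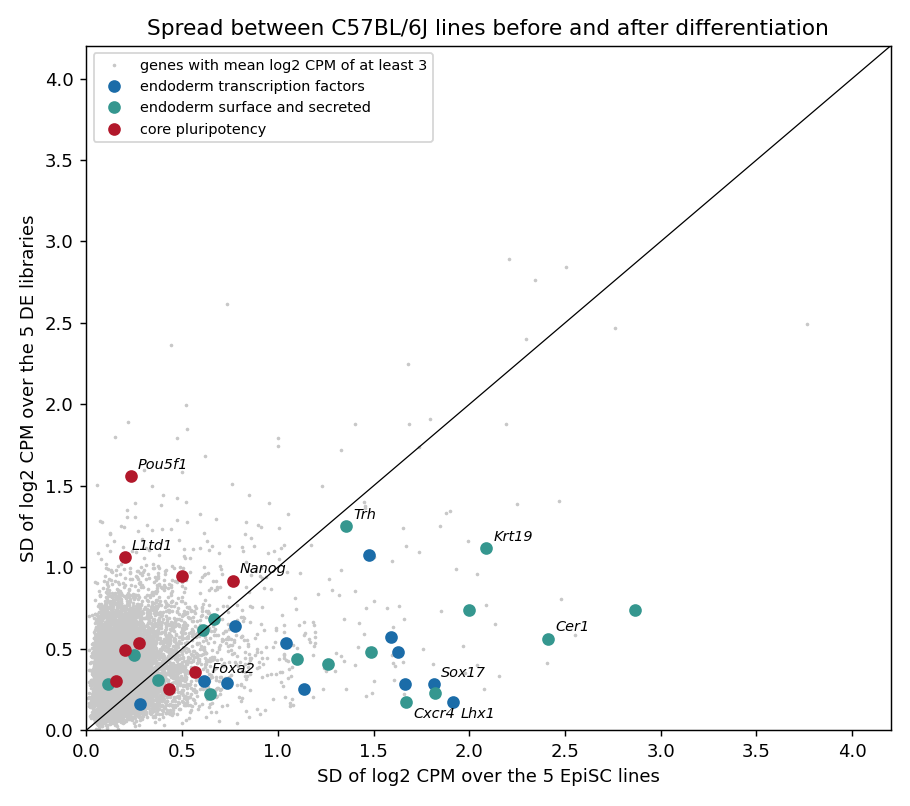
SD of log2 CPM between the 5 C57BL/6J lines in EpiSC (horizontal axis) against that in DE (vertical axis) for genes whose mean log2 CPM was at least 3 (grey) and members of 3 lists (coloured); the diagonal marks equal spread. Sox17, Cer1, Lhx1 and Cxcr4, low in EpiSC, lie below the diagonal, and Pou5f1 and L1td1, low in DE, lie above it.

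Single members ranged from near-identical to widely different responses. Among list members the smallest SD of the log2 response over the lines was 0.08, for the DNA demethylase gene Tet3, and the largest 3.58, for the trypsin inhibitor gene Spink1, which was at 0.113, 2.51, 0.147, 10.8 and 7.97 CPM in EpiSC and at 118, 47.7, 86.1, 33.1 and 47.0 CPM in DE. T (2.74), Dkk1 (2.52), Cfc1 (2.49) and Krt19 (2.49) also varied widely. Dkk1 in EpiSC was at 1.32, 8.46, 0.844, 15.6 and 16.9 CPM, with lines 2 and 5-1 lowest as for Sox17.

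Few genes were called for a difference between lines common to both cell types. The test sets such differences against those that change with cell type, on 4 residual degrees of freedom. Its count therefore does not tell how many genes differ between lines within a cell type. The F test of line in the paired fit called 22 of 17794 genes (0.124%), and 862 had an unadjusted p under 0.05. Gata4, the only called list member (chromosome 14, 63198922 to 63271692), was at 2.72, 9.98, 1.28, 9.39 and 15.5 CPM in EpiSC and at 45.9, 127, 26.8, 90.1 and 164 CPM in DE (adjusted p = 0.0393, edgeR). The order of the lines, from 5-1 through 2, 4 and 44 to 1, was the same in both. The call ended without line 2, 44, 5-1 or 1 (adjusted p from 0.0896 to 0.244, edgeR). The other named genes called here whose mean log2 CPM reached 3 were copies of other genes. Of the 22, 14 have clone or predicted names and were set aside, and 1 of these, RP23-463F7.8, also reached that level. Rps3a3, a processed pseudogene of a ribosomal protein gene (chromosome 13, 108670603 to 108671397), was at 118, 225, 0.881, 0.867 and 1.06 CPM in EpiSC and at 304, 188, 0.623, 1.03 and 1.03 CPM in DE (adjusted p = 0.000808, edgeR). It was on in lines 2 and 44 and near 1 CPM in the other 3. Eno1b, a copy of an enolase gene, was at 154, 1.88, 1.62, 7.29 and 1.97 CPM in EpiSC and at 666, 34.8, 18.4, 212 and 11.7 CPM in DE. Tpm3-rs7 was at 126, 1.94, 1.87, 7.73 and 3.44 CPM in EpiSC and at 181, 3.42, 2.95, 69.9 and 3.22 CPM in DE. Line 2 was highest and line 4 next in both genes and both cell types. Rps3a2 was called as well, but in none of the fits with 1 line left out (adjusted p = 0.0576 without line 4, edgeR). These copies share sequence with their parent genes, so their values are uncertain. Irs4 and Dynlt1, among the next in rank, did not pass (adjusted p = 0.302 and 0.314, edgeR).

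Kcnj3 and Kdm5d were singled out after their values were seen. The potassium channel gene Kcnj3 (chromosome 2, 55435970 to 55598145), called but below the level set, was at 73.3, 131, 0.0734, 2.53 and 0.0378 CPM in EpiSC and at no more than 2.29 CPM in DE. The Y-linked demethylase gene Kdm5d was at 1.66, 2.26, 17.1, 13.5 and 37.3 CPM in EpiSC and at 0, 0.489, 25.3, 1.58 and 13.5 CPM in DE and was not called between lines. In DE, line 4 was thus close to lines 2 and 44 on Kdm5d, and in EpiSC close to line 5-1. The count of called genes was 21 without line 4, 1 without line 2, 4 without line 44, 7 without line 5-1 and 9 without line 1. DESeq2 called 379, and edgeR with no low-count filter 74.

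The response of C57BL/6J was set against that of 11 lines of 6 other strains with both libraries (1 CAST/EiJ, 1 DBA/2J, 2 WSB/EiJ, 2 NZO/HiLtJ, 2 NOD/ShiLtJ and 3 PWK/PhJ). The interaction test over 32 libraries called 24 of 20766 genes (0.116%), 5 with a higher and 19 with a lower response in C57BL/6J. The 11 other lines were weighted equally whatever their strain, so its p-values do not measure the spread between strains. The count was 6 without line 4 and 6 without line 1, and 2339 genes had an unadjusted p under 0.05. The one build named is mm10, the C57BL/6J genome, for every strain, so alignment and strain cannot be told apart. Sox17 had mean responses of 8.10 in C57BL/6J and 7.77 in the other lines, with a difference of 0.17 ± 0.81 (SE), and Cer1 of 0.24 ± 0.88. For Pou5f1 the difference was -1.41 ± 0.88 (adjusted p = 0.573, edgeR). These errors leave room for differences of over 2-fold, so the marker responses are not shown to be alike. Of 318 list members tested, 1 passed: Cldn4, a claudin gene, with responses of -4.94 to -0.37 in C57BL/6J and of -0.56 to 5.06 in the other lines (difference -5.71 ± 0.99, adjusted p = 0.0284, edgeR). The ranges overlapped, and the call ended without line 44, 4 or 1 (adjusted p = 0.0842, 0.127 and 0.119, edgeR) and without the PWK/PhJ lines (0.101).

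Of all genes tested 93 (0.448%) had responses that did not overlap between the 5 C57BL/6J and the 11 other lines. Among called genes of this kind, Frmd4b, a scaffold protein gene of epithelial junctions (chromosome 6, 97286867 to 97617541), had responses of 0.23, -0.12, 0.16, 0.22 and 0.84 in C57BL/6J and of 1.18 to 3.58 (median 2.88) elsewhere (difference -2.53 ± 0.36). The call for Frmd4b held with each C57BL/6J line left out. Lpin1, a phosphatidate phosphatase gene (-1.44 ± 0.25), Etv6, an ETS repressor gene (-1.39 ± 0.26), Cyb5r1 (-1.29 ± 0.22), Sh3bp4 (-1.25 ± 0.21) and Pdlim5 (-1.13 ± 0.20) also had lower responses. Mesdc1 (1.17 ± 0.22) and Dffa, an inhibitor of the apoptotic nuclease (0.86 ± 0.15), had higher ones. Mesdc1 was nearly constant in C57BL/6J, with responses of 1.92 to 2.27 against -0.01 to 1.38 elsewhere. Leaving out line 4 or line 1 ended the call of each of these 7 (adjusted p from 0.0574 to 0.140, edgeR). Leaving out line 44 ended 6 of the 7 calls, and leaving out line 2, line 5-1 or the PWK/PhJ lines ended 5 each.

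**Figure D5:**
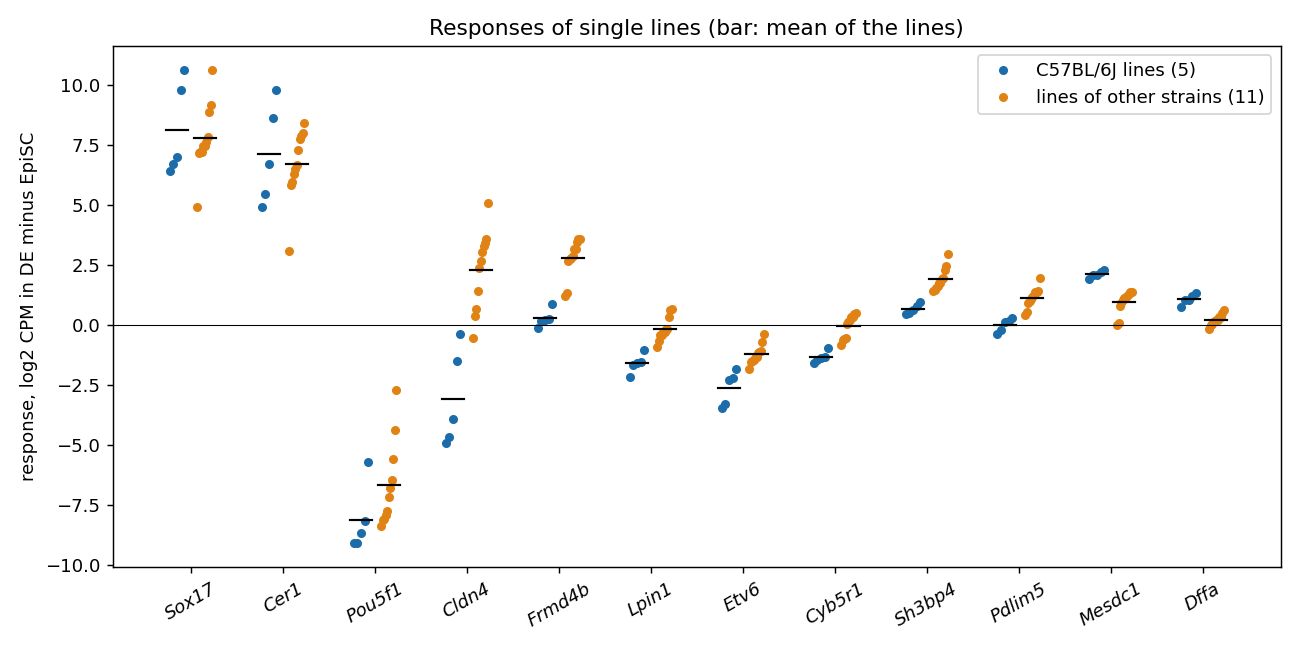
Log2 response (DE minus EpiSC, vertical axis) of each of the 5 C57BL/6J lines and of 11 lines of other strains (points; bars are means) for 3 markers and 9 genes called by the interaction test. The 2 sets overlap for Sox17, Cer1, Pou5f1 and Cldn4, and do not overlap for the other 8 genes.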

How the data were processed

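RNA was read as paired 100-base reads. The authors deposited raw read counts per gene in 1 table for EpiSC and 1 for DE, each with 53655 genes. Per the submitters' processing notes, STAR 2.4, HTSeq 0.6.1, DESeq2 and the build mm10 were used. The sources used here do not give the counting settings for strand or for reads that map to several places.

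The 10 C57BL/6J columns were scaled together by TMM, and genes that reached 10 counts in 3 or more libraries were tested with edgeR 4.0.16 (R 4.3.3; robust quasi-likelihood fit, line as a block, Benjamini-Hochberg adjustment, threshold 0.05). Log2 CPM used a prior count of 2, and a response is the log2 CPM of DE minus EpiSC of 1 line. Line differences came from the same fit, and strain differences from 32 libraries. DESeq2 1.42.0, limma 3.58.1 (voom), other scalings, other filters, no block and left-out lines were alternatives. The scripts were tested on simulated data.

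Libraries of a line come from the same cells, which is where the pairing comes from. Deviations from the group means correlated at 0.083, 0.226, 0.164, 0.033 and 0.213 in lines 2, 44, 5-1, 4 and 1 over 9412 genes; the EpiSC library of line 4 correlated better with the DE library of another line (0.064). Whether lines came from separate embryos is not stated. The DE against EpiSC p-values rest on how the response varies between these lines alone. Level differences between lines are taken out by the block.

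Genes named are the markers, list members with the largest folds, against their list's majority or not past the test, the 10 largest folds each way without overlap at a mean log2 CPM of 4 or more, the 8 smallest p between lines at 3 or more, and called differences of response without overlap; a few genes within this rule are not reported here. Members and lists were chosen with earlier results of these data known.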

Additional observations from a re-analysis of the deposited data

Results flagged for a closer look

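In 5 of 56 groups of 5 libraries, 1 library lay far from the other 4 for its group's range; chance gives this in about 1 in 20 groups. Pou5f1 in DE of line 2 was at 3.67 log2 CPM, with the nearest library at 0.87. Foxa2 in EpiSC of line 5-1 was at 4.13 log2 CPM, below the nearest at 5.33. Lefty2 in DE of line 5-1 was at 8.21 log2 CPM, below the nearest at 10.49. Fgf8 in DE of line 2 was at 10.31 log2 CPM, above the nearest at 9.64. The interferon response list in DE of line 2 had a mean of 1.76 log2 CPM, above the nearest at 0.08. The DE library of line 2 also had the highest fibroblast list, and the part of feeder RNA was not tested.

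The response to differentiation differed between C57BL/6J and the other lines by the interaction test in 9 genes named above. The difference, C57BL/6J minus the others on the log2 scale, was -5.71 for Cldn4, -2.53 for Frmd4b, -1.44 for Lpin1, -1.39 for Etv6, -1.29 for Cyb5r1, -1.25 for Sh3bp4, -1.13 for Pdlim5, 0.86 for Dffa and 1.17 for Mesdc1.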

How the results depend on the processing

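The count of genes changed between EpiSC and DE ranged from 8134 to 13619 over all alternatives, within 1.5 times the 10939 reported; it was 9250 to 10514 with 1 line left out. Without the replicate block that pairs libraries by line, it was 11308, and the log2 folds of Sox17, Cer1 and Pou5f1 were 7.49, 6.16 and -7.38. Of the checks on single genes in this comparison, 1976 kept direction and call, 39 lost and 15 gained a call, and 10 changed sign, all in genes that did not pass. These were checks with 1 line left out, over which the log2 fold ranged from -0.36 to 1.35 for Sox7, -0.28 to 0.011 for Furin, -0.46 to 0.46 for Id1, -0.50 to 0.43 for Acta2 and -0.11 to 0.32 for Ddx3y.

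The 22 genes that differed between lines became 74 with no low-count filter, 379 with a DESeq2 likelihood ratio test and 1 to 21 with 1 line left out. The 24 genes whose response differed from the other strains became 417 with DESeq2, 14 with 50 counts in 5 libraries, 427 with no replicate block over all 34 libraries, 6 to 20 with 1 C57BL/6J line left out, 10 without PWK/PhJ and 81 without WSB/EiJ. The differences for Sox17 and Cer1 changed sign: Sox17 was at -0.38 to 0.63 with 1 C57BL/6J line left out and at -0.092 without CAST/EiJ, and Cer1 at -0.41 to 0.85 with 1 line left out, at -0.26 with no block and at -0.036 without CAST/EiJ. The cause was not tested. With 5 lines and 4 residual degrees of freedom, genes near 1 count per library are the least certain.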
